A study of Saccharomyces cerevisiae with 18 samples.

Results

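The light fraction of a polysome gradient was compared with the total extract of the same wild-type (WT) yeast, which asks which mRNAs sit on ribosomal subunits and single ribosomes in unperturbed cells. Every gene with a mean of at least 5 CPM (reads of the gene in each 1000000 of the library) in the 2 WT total extracts was taken, which gave 5497 of the 7126 genes listed. The other 1629 genes together took no more than 0.166% of reads in any of them. The comparison rests on 4 libraries, a light fraction and a total extract from each of 2 WT cultures.

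RNA-seq was made in 3 strains of budding yeast, with a light fraction, a heavy fraction and a total extract from each of 2 cultures per strain, 18 libraries in all. R28P-30B and R28P-30A have a plasmid copy of 1 paralog of the ribosomal protein gene RPL7 (uL30), uL30B or uL30A. The study describes this cDNA copy as the only source of uL30 protein in these strains. They are used here only for the spread of the fit and for a short comparison. All strains are of the BY background, and the study's strain list gives WT as the clone JPY10H3, MATa his3D200 leu2D0 lys2D0 ura3D0. Cells were in log phase at 30 °C without drug, in Yc medium by one label and synthetic minimal medium by another, and cycloheximide was added at harvest. The light fraction joins the 40S, 60S and 80S peaks, and the heavy fraction holds mRNAs with at least 4 ribosomes. mRNAs with 2 or 3 ribosomes are in neither, so light and heavy do not add up to the total. The WT reads matched the listed genotype: HIS3 and LYS2 had 0 reads, URA3 3 reads and LEU2 6 reads over the 6 WT libraries. The libraries labelled R28P-30A hold reads of RPL7B that go against their label, so that name is kept here with the word labelled. They also hold snR39, which lies in an intron of RPL7A, at 12.3 and 9.90 CPM in their total extracts. URA3 had 11 reads over their 6 libraries, against 47409 in R28P-30B. LEU2 had 13091 reads over their 6 libraries, against 6 in WT and 96411 in R28P-30B, so these libraries do not match WT either.

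A free mRNA that is about to be translated first binds a small (40S) subunit, which scans to the start codon, where a large (60S) subunit joins to form an 80S ribosome or monosome. Further ribosomes load behind the first one, and the mRNA then sediments as a polysome. Cycloheximide freezes elongating ribosomes in place. How far an mRNA travels into a gradient depends on how many ribosomes it has, and so on how often ribosomes start, how fast they move and how long the open reading frame is. A very short open reading frame has room for few ribosomes at a time. The light fraction can also hold RNAs that carry no ribosome at all but sediment with other complexes.

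The open reading frames at the ends of the range show how far the messages differ. The sequences are from the RefSeq R64 genome, written 5′ to 3′ on the coding strand. The first 4 belong to short mRNAs that were higher in the light fraction and the next 2 to short mRNAs that were lower there, with the start and stop codons in capitals. They lie at chrIV:130407-130484, minus strand (RPL41A), chrIV:221724-221801, minus strand (RPL41B), chrIV:38487-38597, plus strand (OST4), chrXVI:797557-797709, plus strand (TOM5), chrIII:162945-163067, minus strand (PMP1), and chrV:122798-122929, minus strand (PMP2). RPL41A and RPL41B encode the same very short protein of the large subunit and differ at 1 base.
RPL41A: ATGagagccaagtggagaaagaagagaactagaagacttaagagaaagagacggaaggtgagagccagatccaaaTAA
RPL41B: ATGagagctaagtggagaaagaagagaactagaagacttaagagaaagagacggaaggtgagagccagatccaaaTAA
OST4: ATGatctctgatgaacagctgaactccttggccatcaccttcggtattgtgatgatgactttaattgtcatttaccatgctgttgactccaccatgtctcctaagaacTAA
TOM5: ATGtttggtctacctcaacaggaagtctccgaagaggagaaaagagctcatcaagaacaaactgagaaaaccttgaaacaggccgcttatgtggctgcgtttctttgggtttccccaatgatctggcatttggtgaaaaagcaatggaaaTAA
PMP1: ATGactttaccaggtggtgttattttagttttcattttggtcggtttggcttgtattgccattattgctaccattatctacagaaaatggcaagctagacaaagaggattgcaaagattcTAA
PMP2: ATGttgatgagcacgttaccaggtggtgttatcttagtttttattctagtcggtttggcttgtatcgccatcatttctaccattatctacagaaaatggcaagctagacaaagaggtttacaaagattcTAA

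The next 2 are windows of 30 codons from cell wall genes that had some of the lowest light levels, chosen by a count as the window with the most serine and threonine codons in each gene. Serine and threonine codons are in capitals. The window of HPF1 lies at chrXV:31268-31357, minus strand, and 22 of its 30 codons are for serine or threonine. The window of DAN4 lies at chrX:715285-715374, minus strand, and 27 of its 30 codons are.
HPF1: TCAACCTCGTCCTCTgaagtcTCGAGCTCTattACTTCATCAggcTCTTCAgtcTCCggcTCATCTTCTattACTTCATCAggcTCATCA
DAN4: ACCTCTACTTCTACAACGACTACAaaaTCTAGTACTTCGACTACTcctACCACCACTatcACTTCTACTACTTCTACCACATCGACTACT

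The mRNAs of ribosomal proteins, histones and small mitochondrial proteins were mostly higher in the light fraction. Very long mRNAs and those of cell wall proteins and wall synthesis enzymes, glycolytic enzymes, chaperones and aminoacyl-tRNA synthetases were mostly lower. By limma on the paired differences of log2(CPM + 0.1), 2162 genes were higher in the light fraction than in the total extract (39.3% of the 5497 tested) and 2029 were lower (36.9%), at an adjusted p under 0.05 by Benjamini-Hochberg. The other 1306 passed in neither direction. Most of the differences were small: 180 genes (3.27%) were called with a log2 value above 1 and 293 (5.33%) with a log2 value under -1. The middle of the distribution was narrow, with a median log2 light over total of 0.02 and quartiles of -0.37 and 0.39. The range ran from -3.11 to 2.29.

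All these values are shares of a library, so higher and lower are relative to the other mRNAs of that library. The 4 libraries held 27868759 and 24541735 reads for the light fractions and 26699585 and 28095211 for the total extracts of cultures 1 and 2. Cytosolic ribosomal protein genes took 23.3% and 22.4% of the light reads, against 15.9% and 14.5% of the total reads. With the libraries scaled without these genes, the median log2 difference of all genes shifted by 0.14, and 2751 genes were then higher and 1622 lower. The 10 most read genes took 5.34% and 5.30% of the light reads, against 8.02% and 7.70% of the total reads.

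The 2 cultures gave similar values. The median absolute difference between them was 0.11 on the log2 scale, while the SD between genes was 0.58. Pearson's correlation between the 2 cultures was 0.961 across the 5497 genes, which are not independent replicates. The cultures differed by more than 0.5 for 51 genes, 39 of which were higher in culture 2. Of these 51, 22 were rows without a coding length, 15 of them snoRNAs or other noncoding RNAs of the lists. The values after ± below are standard errors of the fit, with n = 2 WT cultures and a spread estimated over 6 cultures.

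**Figure D1:**
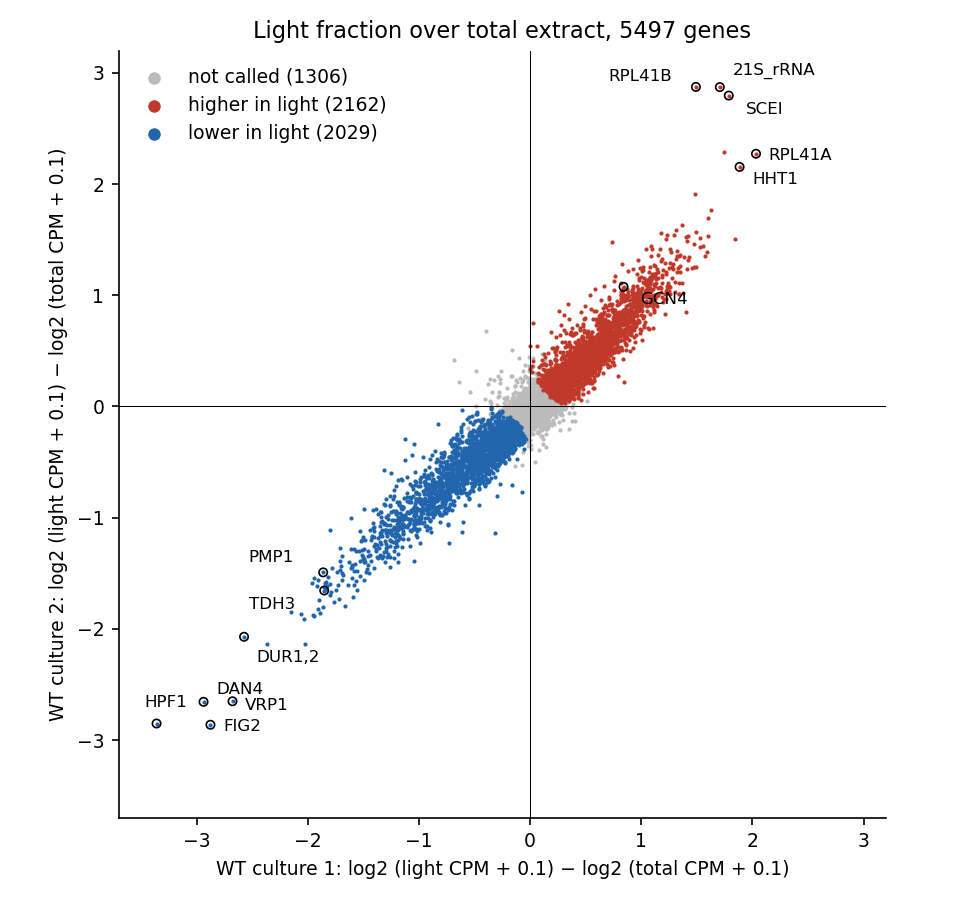
Log2 light over total of each of the 5497 genes in WT culture 2 (vertical axis) against WT culture 1 (horizontal axis), coloured by whether the gene was higher (2162), lower (2029) or not called (1306), with some named genes circled. The genes lie along 1 diagonal from HPF1 at the lower left to RPL41A at the upper right, and RPL41B, 21S_rRNA and SCEI lie above it.

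The genes with the largest differences were taken by rule among called genes that have a name other than their systematic one and a mean of at least 20 CPM in the total extracts. That leaves out the mitochondrial 21S_rRNA, which was higher still at 2.29 and is described further on. The RPL41 pair stood first under this rule. RPL41A had 2802 and 2648 CPM in the light fractions, against 685 and 548 CPM in the total extracts, a log2 difference of 2.15 ± 0.09 and a fold of 4.45 (adjusted p = 2.23e-11). RPL41B had 1529 and 1548 CPM in the light fractions, against 544 and 211 CPM in the total extracts, a log2 difference of 2.18 ± 0.19 (adjusted p = 3.45e-08). The total extracts of RPL41B differed from each other, so its light over total was 1.49 in culture 1 and 2.87 in culture 2. Reads that fit both copies of such a pair were kept at each position, so how reads divide between RPL41A and RPL41B is uncertain.

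HHT1, a gene for histone H3, was next, with 3907 and 3497 CPM in the light fractions, against 1058 and 785 CPM in the total extracts (2.02 ± 0.07, adjusted p = 4.43e-12). COX17, the copper chaperone of cytochrome oxidase assembly, had 76.2 and 77.9 CPM in light, against 24.6 and 22.8 CPM in total (1.70 ± 0.07). OST4, a subunit of the oligosaccharyltransferase, had 141 and 121 CPM in light, against 39.2 and 42.6 CPM in total (1.67 ± 0.08). In all of these the lowest light value was well above the highest total value. The other 7 of the 12 highest were DAD4 (1.65), a subunit of the DASH complex that couples kinetochores to microtubules, RRF1 (1.57), the mitochondrial ribosome recycling factor, STE18 (1.53), the G protein gamma subunit of the mating pathway, POP6 (1.52) of RNase P and RNase MRP, SPL2 (1.50) of the phosphate response, MCM16 (1.49) of the kinetochore and COX14 (1.48) of cytochrome oxidase assembly. Their adjusted p values ran from 1.2e-11 for DAD4 to 2.47e-10 for SPL2. Of the 12 highest, RRF1 had the longest coding sequence at 693 nt.

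At the other end, HPF1, a cell wall mannoprotein, had 6.42 and 8.60 CPM in the light fractions, against 66.9 and 62.7 CPM in the total extracts. Its log2 difference was -3.11 ± 0.10 (adjusted p = 1.21e-12), so that its share was 8.61 times higher in the total extract. FIG2, a mating adhesin, had 15.1 and 16.6 CPM in light, against 111 and 121 CPM in total (-2.87 ± 0.11). DAN4, another wall mannoprotein, had 4.34 and 5.42 CPM in light, against 33.9 and 34.7 CPM in total (-2.80 ± 0.10). These 3 are at or near the cell surface, as are MSB2 (-2.25), a mucin-like sensor, AGA1 (-2.08), the anchor of a-agglutinin, CCW14 (-1.97), a wall glycoprotein, and the flocculin FLO11 (-1.96).

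The other 5 of the 12 lowest have other roles. VRP1, verprolin of actin patches, had 30.0 and 33.9 CPM in light, against 192 and 213 CPM in total (-2.66 ± 0.07, adjusted p = 7.31e-13). DUR1,2, the urea amidolyase, had 93.3 and 134 CPM in light, against 556 and 564 CPM in total (-2.32 ± 0.13). GPH1, glycogen phosphorylase, was at -2.00, WHI3, an RNA-binding protein of cell size control, at -1.92 and PDB1, a subunit of pyruvate dehydrogenase, at -1.91. None of these 12 had overlapping light and total values.

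**Figure D2:**
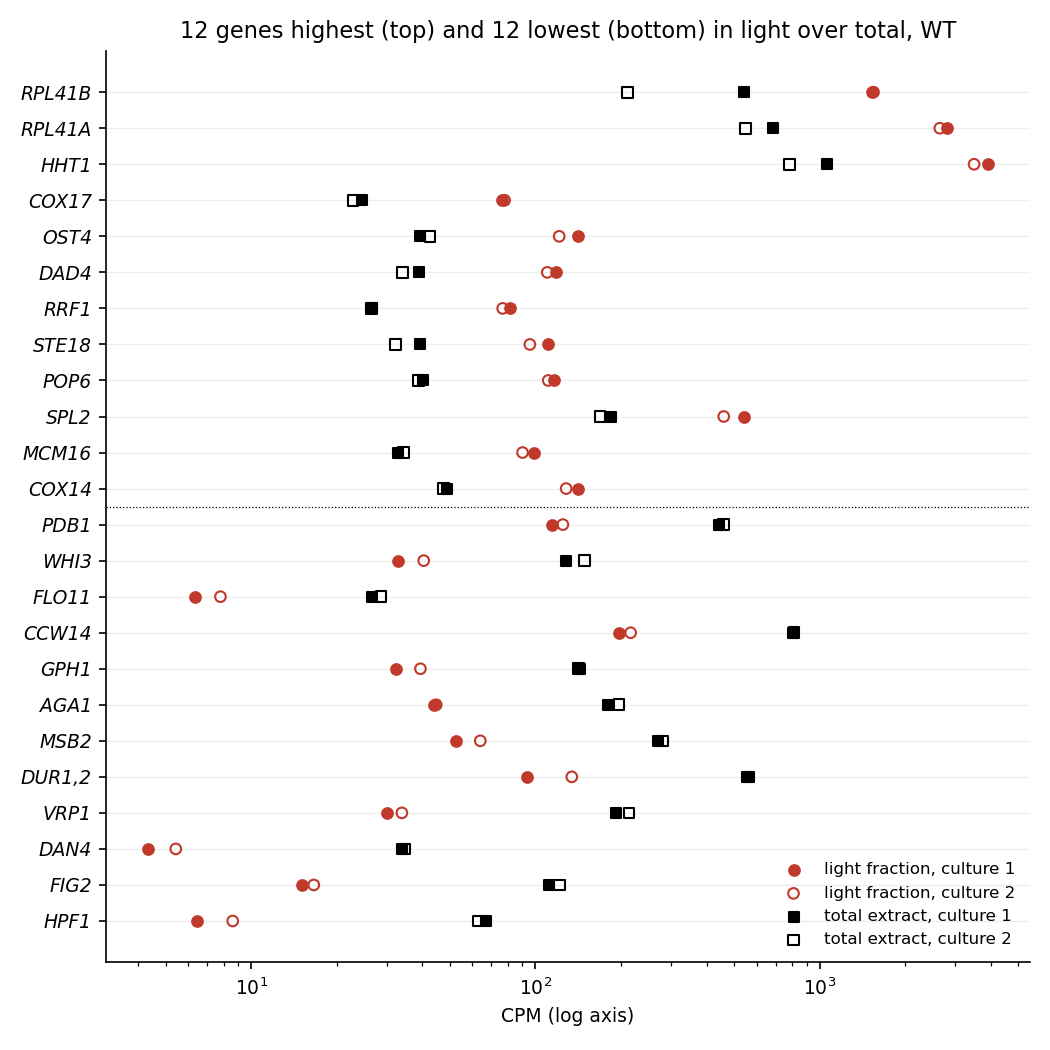
CPM (horizontal log axis) of the 12 genes highest and the 12 lowest in light over total under the rule (rows), with 1 point for each WT light and total library. Light points lie to the right of total points in the upper 12 rows, such as RPL41A at 2802 and 2648 against 685 and 548 CPM, and to the left in the lower 12, such as HPF1 at 6.42 and 8.60 against 66.9 and 62.7 CPM.

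Coding length went with the position of an mRNA in the gradient. Of the 5497 genes, 5377 had a coding length in the reference annotation. Spearman's rho between coding length and log2 light over total was -0.499 in culture 1 and -0.454 in culture 2, as a description over genes that share 2 libraries. The rank correlation with the level per kilobase of coding sequence in the total extract was close to 0, at 0.025 and 0.013.

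In bins of length the median fell at each step. It was 0.73 for the 176 genes under 300 nt, 0.50 for the 700 from 300 to under 600 nt and 0.15 for the 1659 from 600 to under 1200 nt. It was -0.10 for the 1979 from 1200 to under 2400 nt, -0.29 for the 759 from 2400 to under 4800 nt and -0.83 for the 104 of 4800 nt or more. Of the shortest genes 138 were higher and 16 lower (78.4% and 9.09%), and of the longest 1 was higher and 96 were lower (0.962% and 92.3%), beside 39.3% and 36.9% of all genes. The 2 cultures gave 0.73 and 0.74 for the shortest bin and -0.96 and -0.70 for the longest, so the long genes were less depleted in culture 2. Of the 180 genes called with a log2 value above 1, 51 were under 300 nt and 77 were from 300 to under 600 nt.

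**Figure D3:**
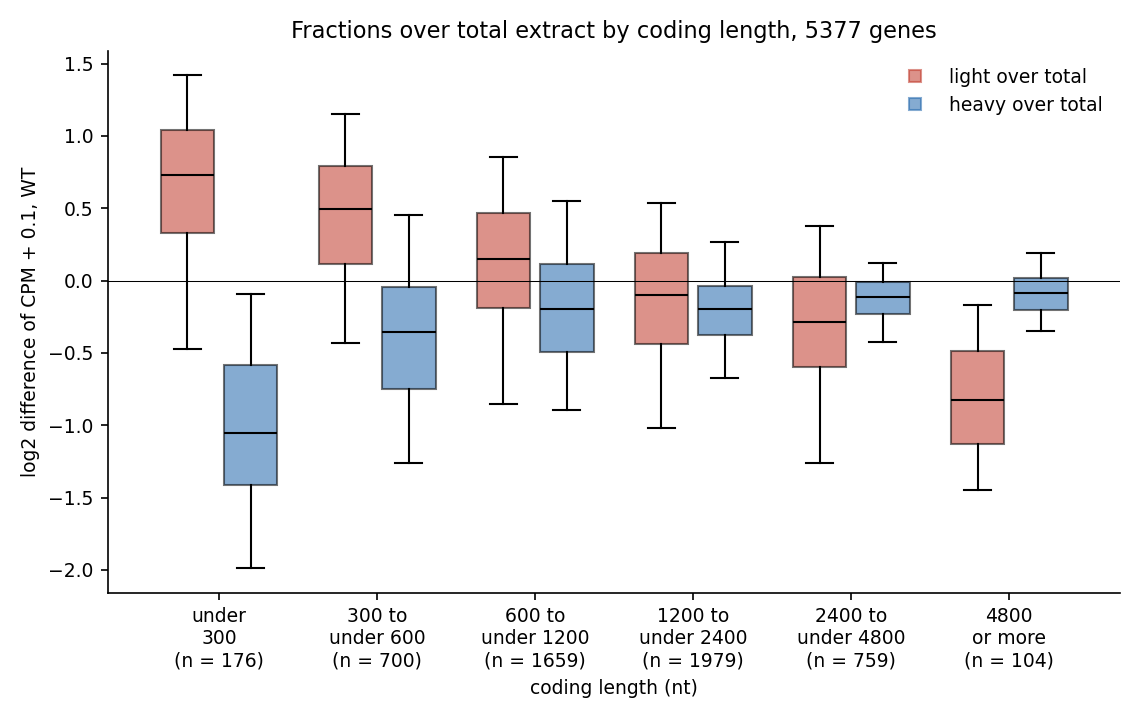
Log2 light over total and log2 heavy over total in WT (vertical axis) for genes in 6 bins of coding length in nt (horizontal axis). Boxes give the quartiles with the median as a line, and whiskers the range from percentile 5 to percentile 95. The light median goes from 0.73 under 300 nt to -0.83 at 4800 nt or more, and the heavy median from -1.06 to -0.08.

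The length relation was not a rule for single genes. Among the 6 longest coding sequences, VPS13 (-1.74 ± 0.08), IRA1 (-1.45), TOM1 (-1.44), MDN1 (-1.40) and DYN1 (-1.13) were at least 1 log2 unit lower in light. TRA1, the shared subunit of the histone acetyltransferase complexes SAGA and NuA4, was much less so, with 111 and 118 CPM in light, against 149 and 161 CPM in total (-0.43 ± 0.06, adjusted p = 1.36e-05). GLT1, the glutamate synthase of 6438 nt that the study uses as a model of a long mRNA, had 248 and 369 CPM in light, against 299 and 310 CPM in total. Its light values lay on both sides of its total values, and it did not pass the test (-0.01 ± 0.11, adjusted p = 0.93).

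Among the 6 shortest, RPL41A, RPL41B and YOL038C-A (1.45 ± 0.12) were higher. YOR302W is the open reading frame of 78 nt in the leader of CPA1, which encodes the arginine attenuator peptide, so its reads are reads of the CPA1 mRNA. It had 9.11 and 8.56 CPM in light, against 10.2 and 14.0 CPM in total (-0.43 ± 0.13, adjusted p = 0.00808), a call that was lost without culture 2 (adjusted p = 0.401) and without pairing (adjusted p = 0.0924). YMR182W-A was lower (-0.68 ± 0.15), and YJL077W-A, at -0.16 ± 0.10, did not pass (adjusted p = 0.183). PMP1 and PMP2, the proteolipid partners of the plasma membrane proton pump, were the clearest short exceptions. PMP2 was chosen after its values were seen. PMP1 had 91.7 and 112 CPM in light, against 333 and 316 CPM in total (-1.68 ± 0.08, adjusted p = 6.21e-11), and PMP2 had 115 and 133 CPM in light, against 275 and 246 CPM in total (-1.07 ± 0.08).

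Within a length bin, the relation with level differed between bins. Among genes from 1200 to under 2400 nt, the median light over total was 0.10, -0.01, -0.14, -0.28 and -0.43 over 5 equal bins of all genes by level per kilobase, from low to high. Among genes from 300 to under 600 nt it was 0.44, 0.59, 0.57, 0.48 and 0.50. From 1200 to under 2400 nt the value went down at each step of level, and from 300 to under 600 nt it did not. Among genes from 2400 to under 4800 nt it was -0.19, -0.31, -0.45, -0.43 and -0.31, so it did not go down at each step there either.

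Genes with at least 25% of serine and threonine codons, common in proteins that are O-mannosylated, were mostly low in light. Over all genes, Spearman's rho with the percent of such codons was small, at -0.074 in culture 1 and -0.091 in culture 2. The 91 genes with at least 25% of such codons had a median of -0.42, with 16 higher, 57 lower and 30 called under -1. These were 17.6%, 62.6% and 33.0% of them, beside 39.3%, 36.9% and 5.33% of all genes. The 2693 genes with 12% to under 16% had a median of 0.01. Between 1200 and 2400 nt, the 30 genes of 25% or more had a median of -0.52, against -0.08 for the 1080 genes of 12% to under 16%. Below 25% the median did not fall steadily in that length range. It was -0.16 under 12%, -0.04 from 16% to under 20% and -0.17 from 20% to under 25%.

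The lists of related genes below were described by how many members passed in each direction, beside the 39.3% and 36.9% of all genes. Of 82 genes for proteins of the large ribosomal subunit, 72 were higher, 2 lower and 8 neither, with a median of 0.69. Of 57 for the small subunit, 51 were higher, 2 lower and 4 neither, with a median of 0.61. After RPL41B, RPS30B, which encodes a small subunit protein, had 1362 and 1314 CPM in light, against 511 and 468 CPM in total (1.45 ± 0.06). From 600 to under 1200 nt, 12 of 20 large subunit genes and 9 of 14 small subunit genes were higher, and 2 of each were lower. The lowest of each were RPL4B (-0.31 ± 0.06) and RPS2 (-0.31 ± 0.07). RPL3, the most read of the large subunit, did not pass (-0.14, adjusted p = 0.0871), but passed as lower without culture 2 (-0.26, adjusted p = 0.0491).

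At matched length the ribosomal protein genes were still above the rest. The 19 under 300 nt were all higher, with a median of 1.13, against 0.65 for the other genes of that length. The 86 from 300 to under 600 nt had a median of 0.69, against 0.44, and the 34 from 600 to under 1200 nt had 0.30, against 0.14. Many of these genes carry introns, a split made after the values were seen. The 90 ribosomal protein genes with an intron had a median of 0.71 and the 49 without had 0.47. Among the other genes the 182 with an intron had a median of 0.33 and the 5056 without had -0.00, but median coding lengths were 855 and 1308 nt. From 600 to under 1200 nt the other genes with an intron had a median of 0.40 (56 genes), against 0.14 (1569 genes), while from 1200 to under 2400 nt the medians were -0.12 and -0.10.

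The 2 paralogs of RPL7 that the study is about were both higher in light. RPL7B had 635 and 609 CPM in light, against 278 and 271 CPM in total (1.18 ± 0.06, adjusted p = 1.72e-10). RPL7A had 2182 and 2000.0 CPM in light, against 1394 and 1336 CPM in total (0.61 ± 0.07, adjusted p = 3.38e-07). Their coding sequences have the same length of 735 nt. In the heavy fraction RPL7B was at -0.27 ± 0.07 and RPL7A at 0.72 ± 0.08 over the total. RPS28A, the gene whose promoter drives the plasmid copies in the other strains, was at 1.27 ± 0.07 and its paralog RPS28B at 0.77 ± 0.09 in light over total. EGD1, the other model gene with a short coding sequence, was higher (0.48 ± 0.07), and OSH6, of 1347 nt, was lower (-0.23 ± 0.07, adjusted p = 0.00475), a call that was lost with scaling without ribosomal protein genes (-0.09, adjusted p = 0.183) and without culture 2 (adjusted p = 0.0728).

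Histone genes, whose mRNAs are made in S phase, were high in light as a group. Of 10 genes, 9 were higher and none was lower, with a median of 1.12. The 9 from 300 to under 600 nt had a median of 1.18, against 0.49 for other genes of that length. Besides HHT1, HHF1 and HHO1, single histone genes were named after their values were seen. The values were 1.37 for HHT2, 1.26 for HTA2, 1.25 for HHF2, 1.18 for HTB1, 1.07 for HTA1, 0.66 for HTB2 and 0.55 for HHF1, and the variant HTZ1 was the ninth. HHO1, the linker histone, was the member that did not pass (-0.04, adjusted p = 0.644). HHF1 had 2178 and 2189 CPM in light, against 1487 and 1493 CPM in total, while HHF2, which encodes the same H4 protein, had 2814 and 2726 CPM in light, against 1213 and 1114 CPM in total. Histone copies are near-identical, so their split of reads is uncertain. Cyclins were mixed, with 10 of 18 higher and 4 lower and a median of 0.25. CLB6 of S phase (0.85 ± 0.10) was the highest and CLN2 of G1 (-1.07 ± 0.06) the lowest, and CLB1 of mitosis was at 0.28 ± 0.06.

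Small proteins of mitochondria were in the light fraction too. Of 70 mitochondrial ribosomal protein genes, 58 were higher and 9 lower, with a median of 0.56, from MRPL39 (1.27 ± 0.07) to YMR31 (-1.41 ± 0.08), with MRP20, the most read, at 0.22 ± 0.06, a call that was lost without culture 1 (0.13, adjusted p = 0.186). YMR31, named as a ribosomal protein, is also known as KGD4, a subunit of the 2-oxoglutarate dehydrogenase complex. From 600 to under 1200 nt, 35 members had a median of 0.53, against 0.14 for other genes of that length. Of 13 genes for small import proteins, 12 were higher and 1 lower, with a median of 0.96. TIM10, a chaperone of the intermembrane space, was at 0.55 ± 0.06. TOM5, a small subunit of the outer membrane translocase, had 168 and 163 CPM in light, against 56.3 and 63.4 CPM in total (1.47 ± 0.07). PAM16 of the import motor was the one that was lower (-0.33 ± 0.07).

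The nuclear respiratory chain genes mostly split by size. Of 40 genes, 21 were higher, 11 lower and 8 neither, with a median of 0.21. The 14 under 300 nt had a median of 0.60, against 0.74 for other genes that short. The 15 from 300 to under 600 nt had 0.53, against 0.50, and the 7 from 600 to under 1200 nt had -0.17, against 0.15. Single members of the 2 shorter groups went as low as -0.83 and -0.81. ATP15, the epsilon subunit of the ATP synthase with 189 nt, had 266 and 242 CPM in light, against 103 and 112 CPM in total (1.24 ± 0.07). COR1, a core subunit of complex III with 1374 nt, had 119 and 123 CPM in light, against 304 and 312 CPM in total (-1.35 ± 0.06). ATP1, the alpha subunit of the ATP synthase, was also lower (-1.07 ± 0.06).

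The genes of pyruvate dehydrogenase were added after PDB1 appeared among the lowest. LAT1, its E2 subunit, had 190 and 197 CPM in light, against 691 and 689 CPM in total (-1.83 ± 0.06, adjusted p = 1.19e-12). PDA1, E1 alpha, was at -1.27 ± 0.06 and LPD1, E3, at -1.03 ± 0.06. PDX1, the E3-binding subunit, was the least depleted at -0.17 ± 0.06 (adjusted p = 0.0201), a call that was lost under scaling without ribosomal protein genes (adjusted p = 0.576) and without culture 2 (adjusted p = 0.219). The 2 subunits of succinyl-CoA ligase in the citric acid cycle, LSC2 (-1.86 ± 0.07) and LSC1 (-1.27 ± 0.06), were lower as well.

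Enzymes of glycolysis and fermentation were mostly low in light. Of 21 genes, 15 were lower, 3 higher and 3 neither, with a median of -0.53. TDH3, the main glyceraldehyde-3-phosphate dehydrogenase, had 4721 and 5129 CPM in light, against 17047 and 16155 CPM in total (-1.75 ± 0.08, adjusted p = 2.61e-11). Its paralogs, named after their values were seen, were less low, with -0.70 ± 0.07 for TDH1 and -0.27 ± 0.07 for TDH2, although all 3 have coding sequences of 999 nt. They share reads, so these values are uncertain, and TDH2 lost its call under scaling without ribosomal protein genes (adjusted p = 0.107). ADH5, a minor alcohol dehydrogenase, was the highest of the list (0.78 ± 0.06). At 600 to under 1200 nt the 9 members had a median of -0.27, against 0.15 for the other genes, and at 1200 to under 2400 nt the 10 members had -0.58, against -0.10.

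Chaperones and the charging enzymes of tRNAs were low as well. Of 31 heat shock chaperone genes, 24 were lower, 3 higher and 4 neither, with a median of -0.42. SSA2, a cytosolic Hsp70, had 262 and 283 CPM in light, against 913 and 915 CPM in total (-1.75 ± 0.06), and its near copy SSA1, named after its values were seen, was at -1.70. SSB1, the Hsp70 that binds nascent chains at the ribosome, was far closer to 0 (-0.21 ± 0.06, adjusted p = 0.00479), a call that was lost under scaling without ribosomal protein genes (adjusted p = 0.325) and without culture 1 (adjusted p = 0.0808). HSP10, the short mitochondrial co-chaperonin, was higher (0.51 ± 0.07). Of 20 aminoacyl-tRNA synthetase genes, 14 were lower, 1 higher and 5 neither, with a median of -0.48. GRS1 for glycine was the lowest (-0.93 ± 0.06), KRS1 for lysine was at -0.30 ± 0.06, and ILS1 for isoleucine the one higher (0.22 ± 0.07, adjusted p = 0.0112), a call that was lost without culture 2 (0.08, adjusted p = 0.433).

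Cell wall genes were mostly low in light. Of 45, 27 were lower, 12 of them under -1, with 7 higher and 11 neither and a median of -0.38. Those from 600 to under 1200 nt had a median of -0.40 (19 genes), against 0.15 for the others, and those from 1200 to under 2400 nt had -0.51 (16 genes), against -0.10. The 5 from 2400 to under 4800 nt went the other way, with a median of -0.00, against -0.29, and 1 of them was lower. SRL1 (-1.65 ± 0.06) and EGT2 (-1.67 ± 0.06), a wall protein of cell separation, were named after their values were seen, as were TIR1 (-0.90), GAS1 (-0.58), which remodels glucan, and HSP150 (-0.33). CCW12, a short and abundant wall protein, was on the other side, with 11913 and 10607 CPM in light, against 9471 and 8868 CPM in total (0.29 ± 0.08, adjusted p = 0.00359). That call was lost when libraries were centred on the median gene (adjusted p = 0.122) and without culture 1 (adjusted p = 0.0997).

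The other flocculins were named after their values were seen. FLO5 (-1.72) and FLO10 (-1.76) were lower in light like FLO11, while FLO9 was higher (0.61 ± 0.12). FLO5 and FLO9 are repeat-rich near copies of each other, so how reads divide between them, and with it the value of FLO9, is uncertain. KNH1, of glucan synthesis, was also higher (0.41 ± 0.08). SEC61, the channel of protein translocation into the endoplasmic reticulum, was chosen after its values were seen and was low (133 and 145 CPM in light, against 414 and 440 CPM in total, -1.62 ± 0.06). The list of short membrane proteins of the secretory pathway, which include OST4 and PMP1, had 11 of 17 higher and 3 lower, with a median of 0.49, and PMP3, the most read, was at 0.45 ± 0.06. Its 14 members under 300 nt had a median of 0.51, against 0.75 for other genes that short.

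Translation factors were mixed. Of 28 initiation factor genes, 9 were higher and 11 lower (median 0.04), with CDC33, the cap-binding protein eIF4E, at 0.73 ± 0.06 and TIF3, eIF4B, at -1.46 ± 0.06. FUN12, eIF5B, which joins the subunits, was at -0.71 ± 0.09. Of 14 elongation and termination factor genes, 6 were higher and 6 lower (median 0.05). ANB1, the eIF5A made without oxygen, was at 0.66 ± 0.11. EFT1 for elongation factor eEF2 was at -0.83 ± 0.07 and YEF3, the fungal factor eEF3, at 0.18 ± 0.08 (adjusted p = 0.0547). YEF3 passed with scaling without ribosomal protein genes (adjusted p = 0.00522) and without culture 1 (adjusted p = 0.0057). Of 92 ribosome biogenesis genes, 40 were higher and 34 lower (median 0.03), from IMP3 (1.14 ± 0.07) to UTP14 (-1.78 ± 0.08), both parts of the small subunit processome. The abundant NOP1, fibrillarin, was at -1.05 ± 0.06.

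Proteasome subunits differed by length within the list. Of 33, 10 were higher and 15 lower, with a median of -0.07. The 18 from 600 to under 1200 nt had a median of 0.16, against 0.15 for the other genes of that length. The 10 from 1200 to under 2400 nt had a median of -0.60, against -0.10. RPT2, an ATPase of the base, was the lowest of all (-0.99 ± 0.06), and RPN12 of the lid the highest (0.80 ± 0.06), with RPN2, the most read member, at -0.48 ± 0.06. Transcription factors had 21 of 85 higher and 42 lower (median -0.16), permeases 9 of 36 higher and 17 lower (median -0.12), and nuclear pore genes 6 of 32 higher and 18 lower (median -0.17). The repressor NRG2 (1.03 ± 0.06) and the zinc finger factor RGM1 (-1.72 ± 0.18) were the ends of the first. MUP3 (0.57), a methionine permease, and HXT7 (-0.94), a glucose transporter, were those of the second. NUP42 (0.51) and NUP100 (-1.03) were those of the third, where NUP2 was at -0.37. From 1200 to under 2400 nt the medians were -0.22 for transcription factors, -0.15 for permeases and -0.13 for nuclear pore genes, against -0.10 for other genes. From 2400 to under 4800 nt they were -0.26 for transcription factors and -0.06 for nuclear pore genes, against -0.29. RNA polymerase subunits were balanced, with 14 of 31 higher and 10 lower (median 0.07), from RPC17 (1.10) to RPC53 (-0.72), both of RNA polymerase III, with RPA135 of RNA polymerase I at -0.53. PMA1, the plasma membrane proton pump, had 3433 and 4486 CPM in light, against 6427 and 6240.0 CPM in total (-0.69 ± 0.09), in the same direction as its partners PMP1 and PMP2.

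**Figure D4:**
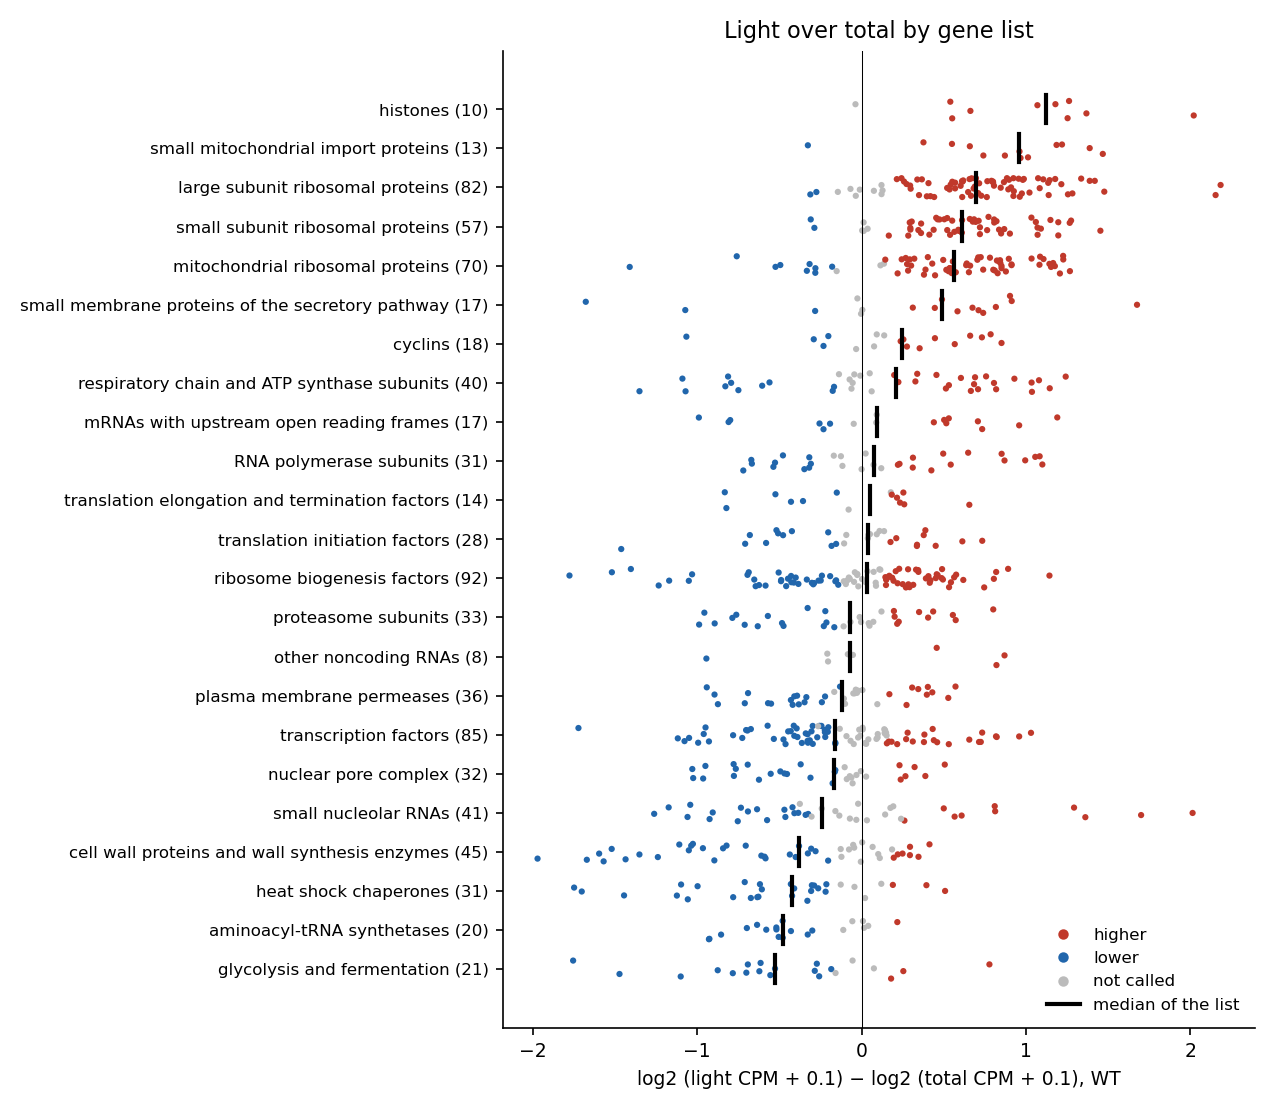
Log2 light over total in WT (horizontal axis) of the members of each gene list (rows, with the number of members kept), coloured by whether a member was higher, lower or not called, with the list median as a bar. Histones, at 1.12, and small import proteins, at 0.96, have the highest medians, and glycolysis, at -0.53, and aminoacyl-tRNA synthetases, at -0.48, the lowest.

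mRNAs with upstream open reading frames, on which scanning subunits can be held before the main start codon, as a list had a median near that of all genes. Of 17, 8 were higher, 6 lower and 3 neither, with a median of 0.09. The 6 from 600 to under 1200 nt had a median of 0.51, against 0.14 for other genes of that length, and the 7 from 1200 to under 2400 nt had -0.23, against -0.10. GCN4, the activator of amino acid synthesis whose 4 upstream frames restrain its translation in fed cells, had 2352 and 2670 CPM in light, against 1314 and 1266 CPM in total (0.96 ± 0.07, adjusted p = 3.41e-09). CBS1 (1.19 ± 0.08), PPR1 (0.73), PET111 (0.71), HAP4 (0.53), SCO1 (0.52), DCD1 (0.50) and CAD1 (0.44) were also higher. PET111 and PPR1, at 2403 and 2715 nt, were higher although most genes of their length were lower. SCH9 (-0.99 ± 0.07), HOL1 (-0.81) and LEU4 (-0.80) were lower. YAP1 (-0.26), CLN3 (-0.23) and URA1 (-0.19) were called lower but lost the call under scaling without ribosomal protein genes (adjusted p = 0.0597, 0.183 and 0.384). The call was also lost for CLN3 without culture 2 (adjusted p = 0.0759), and for URA1 without culture 1 (adjusted p = 0.0738) and without pairing (adjusted p = 0.0608). CPA1 (0.09, adjusted p = 0.185), TIF4631 (0.09, adjusted p = 0.188) and INO2 (-0.05, adjusted p = 0.59) did not pass, and the first 2 of these passed as higher under that scaling.

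Noncoding RNAs in these libraries had been selected on poly(A), so the reads show a part of each that came through that step. Of 76 snoRNAs in the table, 41 were kept, with 5.06 to 46.6 CPM in the total extract. Of these 10 were higher, 18 lower and 13 neither, with a median of -0.24. The reference annotation has 8 snoRNAs inside introns of protein genes, and only 4 of these were kept. Those 4 were the highest of the 41, a grouping made after the values were seen. They guide modification of rRNA in the nucleolus and are released from spliced introns. snR24, in an intron of ASC1 (chrXIII:499984-500072), had 21.4 and 25.7 CPM in light, against 6.33 and 5.20 CPM in total (2.01 ± 0.14, adjusted p = 1.67e-09). snR18, in EFB1 (chrI:142367-142468), had 20.1 and 25.1 CPM in light, against 7.12 and 6.58 CPM in total (1.70 ± 0.13).

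snR39, in RPL7A (chrVII:365163-365251), had 33.5 and 33.4 CPM in light, against 13.3 and 12.6 CPM in total (1.36 ± 0.18). snR44, in RPS22B (chrXII:856710-856920), had 48.8 and 55.5 CPM in light, against 21.6 and 20.8 CPM in total (1.29 ± 0.09). The other 37 had a median of -0.32, with 6 higher and 18 lower, from snR13 (-1.26) to snR84 (0.81), and snR30, the most read, was at -0.69 ± 0.13. The host mRNAs were less high than their snoRNAs, at 0.52 for ASC1, 0.18 for EFB1, 0.61 for RPL7A and 0.76 for RPS22B. All 4 intronic snoRNAs were low in the heavy fraction, at -2.62, -2.28, -2.28 and -1.69 for snR24, snR18, snR39 and snR44. Reads of unspliced or excised introns that span a snoRNA count on it, and their part was not tested.

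**Figure D5:**
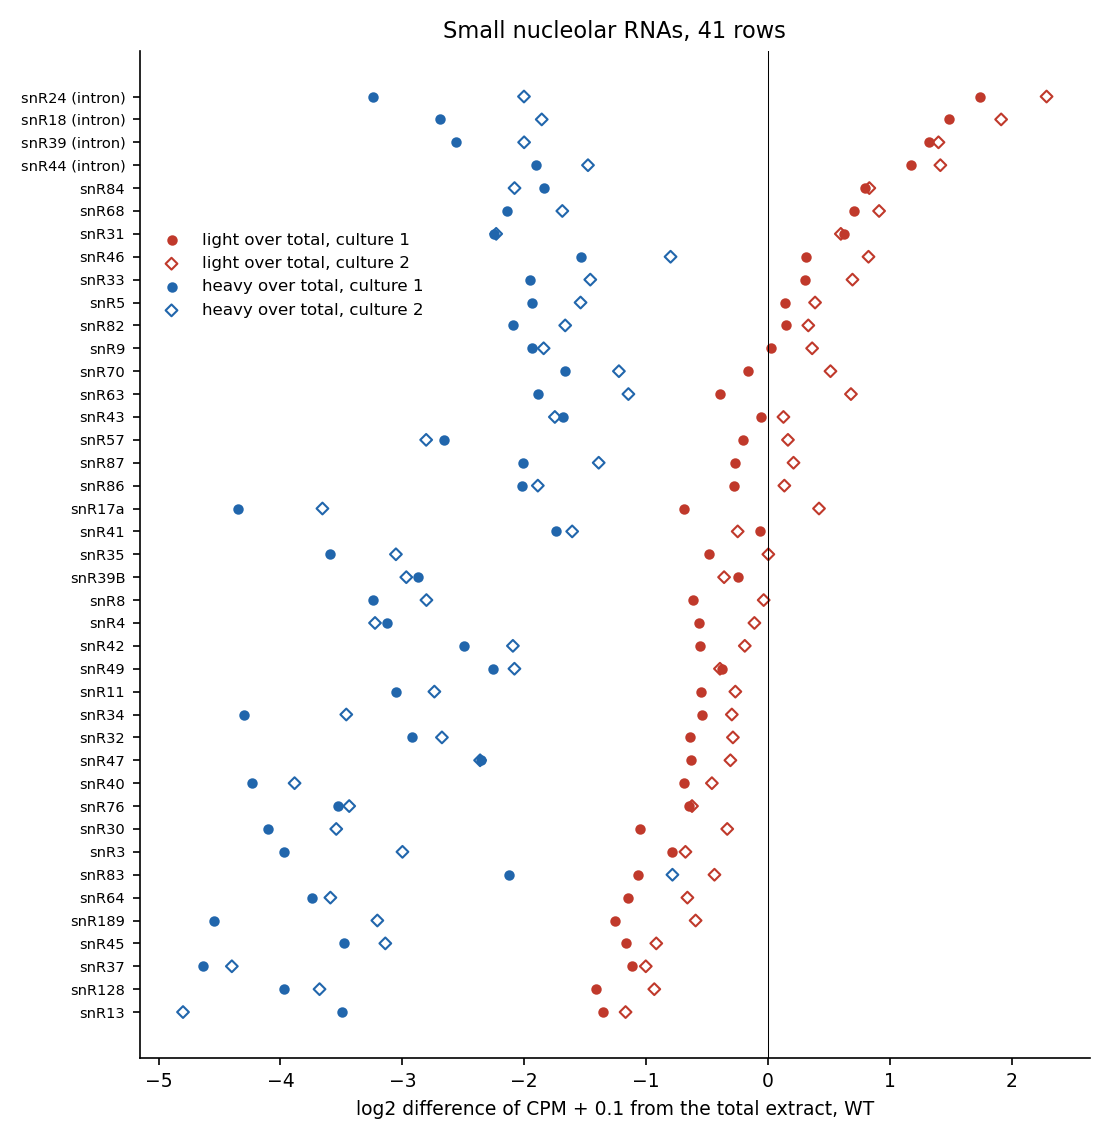
Log2 light over total and log2 heavy over total (horizontal axis) of the 41 snoRNAs kept (rows), with 1 point for each WT culture and ratio. In light over total the 4 snoRNAs in introns have fitted values of 1.29 to 2.01 and the other 37 of -1.26 to 0.81, while in heavy over total the points of all 41 lie between -4.80 and -0.78.

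Of 8 other noncoding RNAs kept, the telomerase RNA TLC1 (0.87 ± 0.08), RUF20 (0.82) and SRG1 (0.46 ± 0.06), transcribed across the SER3 promoter, were higher, and RPR1, the RNA of RNase P, was lower (-0.94 ± 0.18). The signal recognition particle RNA SCR1 had 59.9 and 77.4 CPM in light, against 93.1 and 66.5 CPM in total, and did not pass (-0.21, adjusted p = 0.154). The spliceosomal RNAs LSR1 (-0.08, adjusted p = 0.643) and snR19 (-0.20, adjusted p = 0.191) and the noncoding ICR1 (-0.05, adjusted p = 0.695) did not pass either. These 4 were below the total in culture 1 and above it in culture 2, and each was called lower when culture 2 was left out.

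The mitochondrial genome was present through 2 rows, both chosen after their values were seen. The large rRNA 21S_rRNA had 116 and 176 CPM in light, against 35.6 and 23.9 CPM in total, a log2 difference of 2.29 ± 0.19 (adjusted p = 1.99e-08). SCEI lies inside that gene and was also at 2.29 ± 0.16. No protein gene of the mitochondrial genome in the list of 8 passed the filter. In the heavy fraction 21S_rRNA was down to 0.822 and 0.524 CPM, a log2 difference of -5.27 from the total.

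The heavy fraction shares the total extracts with the light one, so the 2 ratios are given side by side only. In heavy over total, 674 genes were higher (12.3%) and 2866 lower (52.1%), with a median of -0.20. With both libraries centred on the median gene, 1551 were higher and 1656 lower. For RPL41A the heavy value was -2.28, for OST4 -1.64, for TOM5 -1.99 and for HHT1 -1.33, so these short mRNAs were high in light and low in heavy. TDH3 was high in heavy (0.80), as were LSC1 (0.67), LSC2 (0.60), PDA1 (0.57), SSA2 (0.51) and LAT1 (0.43), all of them low in light. Many wall genes were not called higher in heavy although they were low in light: HPF1 was at -0.76, DAN4 at -0.23 and MSB2 at -0.01. VRP1 (-0.07), GPH1 (-0.34), DUR1,2 (-0.25), PMP1 (-0.09) and SEC61 (-0.15) were not called higher either. HPF1 (adjusted p = 4.4e-05), GPH1 (adjusted p = 0.000576), DUR1,2 (adjusted p = 0.00541) and DAN4 (adjusted p = 0.0295) were called lower in heavy. MSB2, VRP1, PMP1 and SEC61 passed in neither direction and lay above the heavy median of all genes (-0.20). Whether they count as high in heavy therefore depends on the scaling. Where these mRNAs were in the rest of the gradient was not measured.

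By length the heavy medians were -1.06 under 300 nt, -0.36 from 300 to under 600 nt, -0.19 from 600 to under 1200 nt and from 1200 to under 2400 nt, -0.11 from 2400 to under 4800 nt and -0.08 at 4800 nt or more. Among the lists, glycolysis had a heavy median of 0.39, the proteasome 0.25 and elongation factors 0.14, against -0.59 for histones, -0.81 for small import proteins and -2.36 for snoRNAs. The ribosomal protein lists were near the average of all genes in heavy, at -0.18 for the large and -0.08 for the small subunit, with large differences between short members such as RPS30B (-2.07) and longer ones such as RPS2 (0.58).

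The same ratio was seen in the other strains with other slopes on length. Spearman's rho of light over total with coding length was -0.643 and -0.658 in the 2 R28P-30B cultures, -0.177 and -0.334 in the 2 labelled R28P-30A, and -0.499 and -0.454 in WT. The median at 4800 nt or more was -1.06 in R28P-30B and -0.14 under the label R28P-30A, against -0.83 in WT. The light over total of single genes differed from WT in 679 genes upward (12.4%) and 998 downward (18.2%) for R28P-30B. Under the label R28P-30A, 1333 genes differed upward (24.2%) and 320 downward (5.82%). Centred on the median gene, the counts were 1022 upward and 900 downward for R28P-30B, and 721 upward and 809 downward under the label R28P-30A. These tests share the WT cultures.

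Among the genes compared one by one between strains, which were picked on their WT values, 3 of the intronic snoRNAs were lower in R28P-30B than in WT. snR18 was at -0.16 in R28P-30B, against 1.70 in WT, a difference of -1.86 (adjusted p = 3.84e-05). snR44 was at -0.40, against 1.29 in WT (difference -1.70, adjusted p = 3.16e-06), and snR24 at 0.49, against 2.01 in WT (difference -1.52, adjusted p = 0.00012). Under the label R28P-30A the values of these 3 were 2.04, 1.81 and 2.90 in the same order. In R28P-30B, snR18 had 7.07 and 7.75 CPM in light, against 20.1 and 25.1 CPM in WT light, while its total extracts were similar, at 8.98 and 7.63 CPM in R28P-30B and 7.12 and 6.58 CPM in WT. A drop in R28P-30B was not particular to snoRNAs in introns. Other snoRNAs differed from WT in both directions. Downward were snR3 (-1.57, adjusted p = 8.91e-05) and snR37 (-0.93, adjusted p = 0.000288), and upward snR68 (0.77, adjusted p = 0.00187) and snR31 (0.45, adjusted p = 0.00908).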

How the data were processed

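Total extracts, light fractions and heavy fractions of 3 yeast strains were sequenced, with 2 cultures per strain and 18 libraries run as 1 pool. The authors made light and heavy RNA from cleared lysates on sucrose gradients with cycloheximide and lithium chloride precipitation, while total RNA was extracted from whole cells with phenol, so the fractions also differ in handling, which was not tested. The authors selected poly(A) RNA, fragmented it to 200 nt, made directional libraries, aligned reads to R64 with STAR, kept reads at each valid position to which they mapped, and counted them on genes with featureCounts. Whether strand was used in counting is not given in the sources used here. The authors deposited the values as CPM, which sum to the same total in each library. Divided by the value of 1 read, 100% came within 0.05 of a whole number, so reads were recovered, 17373839 to 31525927 per library. Counting error is small at that depth. A second table in TPM was not used.

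The values of light and total were paired within a culture, since the labels give both the same source, although the study's general methods describe small separate cultures for total RNA. The differences between replicates correlated at 0.183 (WT), 0.377 (R28P-30B) and 0.171 (labelled R28P-30A) between light and total. Differences of log2(CPM + 0.1) were fitted with limma (3.58.1, R 4.3.3; trend, empirical Bayes, 2-sided), with strain as the only term, over 6 cultures, and adjusted by Benjamini-Hochberg over 5497 genes. Folds are on that scale, which understates low genes. p-values measure the spread between these cultures. edgeR (4.0.16) and DESeq2 (1.42.0) were run on recovered reads as alternatives. The test was also run on simulated data with far fewer changed genes than were called here, which does not test it in this setting.

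The columns labelled R28P-30A were assigned by their last letter. Named genes were the 12 highest and 12 lowest called genes with at least 20 CPM and the same direction in both cultures, up to 3 members of each list (highest, lowest, most read), the study's model genes, the 6 longest and 6 shortest, and all kept uORF mRNAs and noncoding RNAs, of which the snoRNAs are given in part. Others are named as chosen later. One gene that the rule names is not reported here. Gene lists and members were chosen with earlier results of these data known. Coding lengths, introns and sequences are from the RefSeq annotation of R64, with UTRs not included. Python 3.11.15, pandas 2.3.3 and scipy 1.17.1 were used.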

Additional observations from a re-analysis of the deposited data

Results flagged for a closer look

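For 27 genes of WT (the 12 highest, the 12 lowest and the intronic snoRNAs other than snR39), light over total was compared between strains. It differed from WT in R28P-30B for 13 and in the libraries labelled R28P-30A for 13, at an adjusted p under 0.05 over 5497 genes. Across all genes 12.4% and 18.2% differed upward and downward in R28P-30B, and 24.2% and 5.82% under the label R28P-30A. The genes were picked as extremes of the WT values that are then subtracted, which by itself favours a difference toward 0, so these p-values are not independent of the choice. All values below are differences in log2 light over total, strain minus WT, with 2 cultures on each side.

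Several of the genes that were high in WT were higher still in R28P-30B: DAD4 by 0.62 (adjusted p = 0.000315), SPL2 by 0.49 (adjusted p = 0.00653), COX14 by 0.42 (adjusted p = 0.00531), POP6 by 0.40 (adjusted p = 0.00698), OST4 by 0.38 (adjusted p = 0.0235) and MCM16 by 0.29 (adjusted p = 0.0468). Under the label R28P-30A, POP6 differed by 0.36 (adjusted p = 0.0117). The RPL41 pair went the other way there, with -0.88 for RPL41A (adjusted p = 0.000349) and -1.11 for RPL41B (adjusted p = 0.00666).

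Of the 12 lowest in WT, 8 were less low in the libraries labelled R28P-30A. The differences were 0.70 for AGA1 (adjusted p = 0.00024), 0.70 for GPH1 (adjusted p = 0.00045), 0.64 for VRP1 (adjusted p = 0.000526), 0.64 for DAN4 (adjusted p = 0.00454), 0.58 for HPF1 (adjusted p = 0.00648), 0.57 for FLO11 (adjusted p = 0.0116), 0.56 for WHI3 (adjusted p = 0.00124) and 0.47 for MSB2 (adjusted p = 0.00281). The other 4 did not pass, at 0.37 for FIG2 (adjusted p = 0.0774), 0.39 for DUR1,2 (adjusted p = 0.103), 0.24 for CCW14 (adjusted p = 0.0532) and -0.02 for PDB1 (adjusted p = 0.865). In R28P-30B they were 0.56 for AGA1 (adjusted p = 0.000992), 0.56 for FLO11 (adjusted p = 0.012), 0.48 for DAN4 (adjusted p = 0.0224) and 0.26 for CCW14 (adjusted p = 0.0382).

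The intronic snoRNAs differed by -1.86 for snR18 (adjusted p = 3.84e-05), -1.70 for snR44 (adjusted p = 3.16e-06) and -1.52 for snR24 (adjusted p = 0.00012) in R28P-30B. Some snoRNAs outside introns differed there too, such as snR3 at -1.57 (adjusted p = 8.91e-05) and snR68 at 0.77 (adjusted p = 0.00187). Under the label R28P-30A the differences were 0.89 for snR24 (adjusted p = 0.00316) and 0.52 for snR44 (adjusted p = 0.0069). R28P-30B had at most 0.0378 CPM of snR39, so no ratio could be read for it there.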

How the results depend on the processing

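The counts of genes higher and lower in light over total stayed within 1.5 times 2162 and 2029 under every setting of scaling, pseudocount, filter, tool, library set and pairing that was run. edgeR gave 2284 and 2003 and DESeq2 1995 and 1981 on recovered reads, without the replicate block there were 2099 and 1963, and without 1 culture 1814 to 2026 and 1790 to 1805. With an added bound of 0.5 on the log2 value they were 1035 and 1026, and with a bound of 1, 180 and 293. Spearman's rho with coding length was -0.499 to -0.454 without 1 culture. In heavy over total, 1551 genes were higher and 1656 lower once libraries were centred on the median gene, and 439 to 465 were higher without 1 culture. For R28P-30B minus WT, centring gave 1022 higher, and leaving out 1 culture of a strain gave 231 to 621 higher and 433 to 851 lower, with 231 and 507 without WT culture 2. For the libraries labelled R28P-30A minus WT, centring gave 721 higher and 809 lower, and leaving out 1 culture 717 to 1571 higher and 177 to 374 lower. The median changed sign for elongation factors without a culture (-0.0233 to 0.0461), for the proteasome (0.0691) and permeases (0.0174) under scaling without ribosomal protein genes, and for other noncoding RNAs under that scaling (0.0682) and without a culture (-0.42 to 0.29). The cause was not tested. Of the 152 named genes, none that was called changed sign under the 6 settings run on them, while some that were not called did, and MRP20 (0.22) lost its call without WT culture 1 (adjusted p = 0.186). With 2 cultures per strain, calls rest on the spread shared over strains.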
